A study of Mus musculus with 8 samples.

Results

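Transcripts of 10 transporters that carry bile acids, phospholipid and conjugated bilirubin across the membranes of liver cells were read in label-retaining and non-label-retaining biliary cells. The members were named as a fixed set of genes, Slc10a1, Slco1b2, Slco1a1, Abcb11, Abcb4, Abcc2, Slc10a2, Slc51a, Slc51b and Abcc3, and make up 10 of the 46603 genes in the count table. The rule that names them used no measured value. By where the protein is known to act, 6 are transporters of hepatocytes, 3 are transporters of the bile duct and ileum, and Abcc3 belongs to both hepatocytes and ducts.

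Bile acids circulate between liver and intestine. Hepatocytes take them up from blood across the basolateral membrane and pump them across the canalicular membrane into bile, together with phosphatidylcholine, which shields duct cells from the detergent action of bile acids. Cholangiocytes, the cells that line the ducts, can take bile acids back from bile at their apical side through a sodium-dependent transporter and release them at the basolateral side, and hepatocytes and cholangiocytes also export conjugates toward blood through Abcc3.

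RNA was sequenced from 4 mice, JV602, JV621, JV624 and JV6314, with an EGFP-positive library (label-retaining cells, LLRC) and an EGFP-negative library (non-LRC) from each. Where 4 values are listed, they follow this order of mice. All mice carried R26rtTA het/H2B-EGFP het on a mixed C57BL/6 and CBA background, received doxycycline through the nursing mother from birth to postnatal day 5, and were used at 8 weeks of age. The ubiquitous Rosa26 promoter drives the doxycycline-dependent activator, so the label was not limited to biliary cells, and it is diluted when a cell divides. According to the study, this transgene can also be active without doxycycline in blood-forming cells. According to the study's methods, hepatocytes were removed by slow centrifugation and leukocytes with CD45 beads before EpCAM-positive, CD45-negative cells were sorted by EGFP, and mice of both sexes were in use.

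Total counts ranged from 7860021 to 9851819 in LLRC libraries and from 4670132 to 8056103 in non-LRC libraries. Values are given as counts per 1000000 of TMM-scaled library size (CPM), and 3 counts corresponded to between 0.291 and 0.626 CPM. The non-LRC libraries of JV621 and JV6314 stood apart, with 15.6% and 7.75% of the 13605 tested genes at 0, against 0.345% to 1.57% in the other libraries. Of the 10 transporters, 7 were at 0 in the non-LRC library of JV621 and 4 in that of JV6314, against 2 in each of the others, so for several transporters fold changes without them are also given. The biliary markers Krt19 and Epcam were read in every library, and so was Alb, which encodes albumin and is a defining hepatocyte transcript. Summed over 17 hepatocyte markers without Alb, the level was 1975 to 2213 CPM in LLRC and 2129, 1412, 7269 and 4274 CPM in the 4 non-LRC libraries. A lower level in a sorted population cannot be separated here into fewer cells of a type and less RNA per cell.

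Promoter sequence is shown for Slco1b2 and Abcb11, whose levels varied together over the 8 libraries and whose windows both held a near match to IR-1, an inverted repeat that the bile acid receptor FXR is known to bind. Slco1a1 varied more closely with each of them than they did with each other, and its window held no such match. Shown are the 250 bases before the RefSeq start, GRCm38.p6, at chr6:141629268-141629517 on the plus strand for Slco1b2 and at chr2:69342617-69342866 on the minus strand for Abcb11, with the near match in capitals.
Slco1b2: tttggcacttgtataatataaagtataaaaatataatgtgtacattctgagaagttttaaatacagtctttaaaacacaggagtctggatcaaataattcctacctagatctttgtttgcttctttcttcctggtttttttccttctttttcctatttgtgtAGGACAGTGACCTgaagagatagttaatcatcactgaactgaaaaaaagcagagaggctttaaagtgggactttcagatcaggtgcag
Abcb11: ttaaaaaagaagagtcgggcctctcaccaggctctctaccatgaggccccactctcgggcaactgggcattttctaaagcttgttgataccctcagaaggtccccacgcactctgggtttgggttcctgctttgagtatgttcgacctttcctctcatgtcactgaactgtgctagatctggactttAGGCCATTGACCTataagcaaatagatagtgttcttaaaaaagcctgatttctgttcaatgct

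The motif searched was AGGTCANTGACCT, which reads the same on both strands, in windows of 250 bases before to 50 bases after the start. With at most 1 mismatch, 0.0822% of 32851 such windows in the genome held it. The match began 88 bases before the start in Slco1b2 and 63 bases before the start in Abcb11, each with 1 mismatch. A palindrome of the hepatocyte and duct factors HNF1, GTTAATNATTAAC, was matched in Slc10a2 as ATTAATTATTAAC with 1 mismatch, and in Abcc2 as GTTAACTATTAAG with 2 mismatches, at 224 and 75 bases before their starts. At most 2 mismatches were found in 1.36% of all windows, and at most 1 in 0.207%. Windows of 9 of the 10 members were searched, all but Abcc3. Both motifs were chosen after the sequences were seen, so the shares over all windows do not test them. A match is a description of letters, not of binding.

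The hepatocyte uptake transporters were compared first, for the question of whether LLRC and non-LRC cells differed in transcripts of bile acid uptake from blood. All 3 stood lower in LLRCs on average, by 4.01-fold to 8.27-fold in mean CPM, but the groups overlapped for each of them, and none passed the adjusted threshold of 0.05 in edgeR's quasi-likelihood test. In that test 0% of the 13605 genes had an adjusted p below 0.05 and 5.16% had an unadjusted p below 0.05, so that the members are read against this background. Fold changes are on the log2 scale, LLRC over non-LRC.

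Slc10a1 (chromosome 12, 80953183 to 80968705, minus strand, GRCm38) encodes NTCP, the sodium-dependent transporter that brings conjugated bile acids into hepatocytes. In LLRCs it stood at 7.46, 8.75, 15.3 and 32.2 CPM in the 4 mice. In their non-LRC cells it stood at 3.26, 104, 98.2 and 50.3 CPM. The lowest of all 8 was the non-LRC library of JV602 and the other 3 non-LRC libraries were above every LLRC library, so the LLRC library was lower in 3 of 4 mice. The means of LLRC and non-LRC libraries were 15.9 ± 11.4 and 63.9 ± 47.0 CPM (SD, n = 4 each). The log2 fold change was -2.0 (standard error 0.89), with an unadjusted p of 0.0501 and an adjusted p of 0.962 from edgeR, and the exact two-sided permutation p of the CPM values was 0.143. Without the non-LRC library of JV602 the fold change was -2.41, with an unadjusted p of 0.00316 and an adjusted p of 0.195 in the same edgeR test, the smallest adjusted p that any member reached in any setting. The fold change was -1.65 (unadjusted p of 0.107) when the non-LRC library of JV621 was left out, -1.5 (p of 0.158) with the mouse as a block, both in edgeR, and -0.66 (p of 0.537) with limma's voom. Unlike most members, Slc10a1 was not at 0 in the non-LRC library of JV621, where it had 497 counts and its highest level.

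Slco1b2 (chromosome 6, 141629518 to 141686646, plus strand) encodes a hepatocyte organic anion transporter that takes up unconjugated bile acids, bilirubin and many drugs without sodium. Its levels in LLRCs were 8.72, 9.46, 25.0 and 3.11 CPM. In non-LRC cells they were 32.7, 0, 164 and 64.5 CPM. The non-LRC libraries held both the lowest value, at JV621, and the 3 highest, and in 3 of 4 mice the LLRC library was lower. The log2 fold change was -2.50 (standard error 1.31, unadjusted p of 0.0891 and adjusted p of 0.9999 from edgeR), between means of 11.6 ± 9.39 and 65.2 ± 70.7 CPM (SD, n = 4 each), and the exact permutation p was 0.20. Without the non-LRC library of JV621 the fold change was -2.90 (edgeR, unadjusted p of 0.00396, adjusted p of 0.269), and the non-LRC mean was 87.0 CPM. When that of JV624 was left out, the mean was 32.4 CPM and the fold change -1.49 (edgeR, unadjusted p of 0.298).

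Slco1a1 (chromosome 6, 141907282 to 141946962, minus strand) encodes another basolateral organic anion transporter of hepatocytes. It stood at 2.42, 6.62, 10.7 and 6.11 CPM across the LLRC libraries, and at 5.76, 0, 111 and 97.1 CPM across the non-LRC libraries. Only the non-LRC libraries of JV624 and JV6314 were above the range of LLRCs, while those of JV602 and JV621 lay within and below it. The means were 6.47 ± 3.40 and 53.5 ± 58.8 CPM (SD, n = 4 each), and gave a log2 fold change of -3.05 (standard error 1.4, unadjusted p of 0.0564 and adjusted p of 0.977 from edgeR) and an exact permutation p of 0.40. Leaving out the non-LRC library of JV621 gave a fold change of -3.45 (edgeR, unadjusted p of 0.00389, adjusted p of 0.265). Leaving out that of JV624 gave -2.41 (p of 0.143) and a non-LRC mean of 34.3 CPM, and the fold change with the mouse as a block was -1.79 (p of 0.346), both in edgeR. Of its exonic 50-base words, 1.64% also occurred in other genes, most of them in Slco1a4 and Slco1a5 of the same family, so a small share of reads could not be placed by sequence alone.

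**Figure D1:**
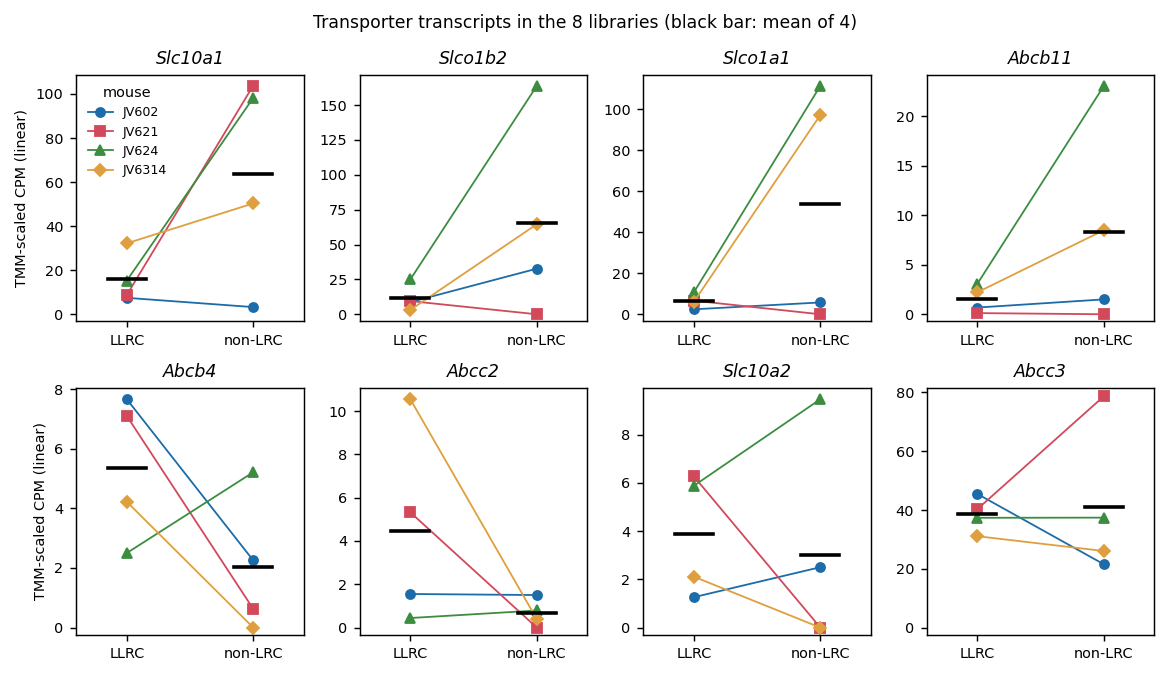
Level of each of the 8 transporters with any counts in the 8 libraries, in TMM-scaled CPM on linear axes that differ between panels, with a line joining the LLRC and non-LRC library of each mouse and a black bar at the mean of 4. For Slc10a1, Slco1b2, Slco1a1 and Abcb11 the mean bar is lower in LLRC, for Abcb4 and Abcc2 it is higher, and in every panel the 2 groups overlap.

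The canalicular transporters, which move solutes from hepatocytes into bile, did not share a direction. Abcb11 stood lower in LLRCs on average, Abcb4 and Abcc2 stood higher, and all 3 were read at low levels. Abcc2 was the 1 member with an unadjusted p below 0.05, where 1.6% of all tested genes were higher in LLRC at that threshold, and its adjusted p was 0.951 in edgeR's quasi-likelihood test.

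Abcb11 (chromosome 2, 69238282 to 69342616, minus strand) encodes BSEP, the pump that exports bile acids into the canaliculus. Its counts were 7, 1, 21 and 20 in the LLRC libraries, or 0.679, 0.118, 3.09 and 2.22 CPM. In non-LRC libraries they were 12, 0, 146 and 43, or 1.5, 0, 23.0 and 8.48 CPM. In both groups JV624 and JV6314 stood above JV602 and JV621, and the LLRC library was the lower in 3 of 4 mice. The means of 1.53 ± 1.37 and 8.26 ± 10.5 CPM (SD, n = 4 each) gave a log2 fold change of -2.43, with a standard error of 1.41 and an adjusted p of 0.9999 from edgeR, and the exact permutation p was 0.343. When the non-LRC library of JV621 was left out, the unadjusted p was 0.0303 and the adjusted p 0.489 in edgeR, at a fold change of -2.84, and without that of JV624 the fold change was -1.12 (p of 0.451) and the non-LRC mean 3.33 CPM. Of its exon length, 3.01% overlaps genes on the opposite strand, and the reads were counted without strand.

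Abcb4 (chromosome 5, 8893717 to 8959231, plus strand) encodes the flippase that delivers phosphatidylcholine to the outer leaflet of the canalicular membrane. Its levels were 7.66, 7.10, 2.50 and 4.22 CPM across the LLRC libraries, and 2.25, 0.626, 5.21 and 0 CPM across the non-LRC libraries. LLRCs were higher in JV602, JV621 and JV6314 and lower in JV624. The means were 5.37 ± 2.43 and 2.02 ± 2.33 CPM (SD, n = 4 each), and they differed by less than 2 standard errors (log2 fold change 1.39, standard error 1.03, adjusted p = 0.9999 from edgeR, exact permutation p of 0.114). The fold change was 1.11 without the non-LRC library of JV621, 0.99 without that of JV6314 and 0.55 (standard error 0.66, unadjusted p of 0.434 in edgeR) without both. It was larger, at 2.41 (standard error 1.11, unadjusted p of 0.0614 in edgeR), without the non-LRC library of JV624, at 2.66 without both libraries of JV624 and at 2.29 with the mouse as a block. Abcb4 shares 2.87% of its exonic 50-base words with other genes, mainly its paralogs Abcb1a and Abcb1b and the unrelated Supt7l, and Abcb1a was read at 111 ± 49.5 CPM in LLRC libraries and 81.3 ± 53.6 CPM in non-LRC libraries (SD, n = 4 each), far above Abcb4.

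Abcc2 (chromosome 19, 43782192 to 43840740, plus strand) encodes MRP2, which exports bilirubin glucuronides and other conjugates into bile. Its counts were 16, 45, 3 and 95 in the LLRC libraries, or 1.55, 5.32, 0.441 and 10.5 CPM. In the non-LRC libraries they were 12, 0, 5 and 2, or 1.5, 0, 0.789 and 0.395 CPM. The LLRC libraries of JV621 and JV6314 were well above the non-LRC range and that of JV602 was barely above it, being nearly equal to the non-LRC library of the same mouse, while JV624 was lower in LLRC. Its means were 4.47 ± 4.56 and 0.672 ± 0.641 CPM (SD, n = 4 each). The log2 fold change was 2.65 (standard error 1.15, unadjusted p of 0.0456, adjusted p of 0.951 from edgeR), and the exact permutation p was 0.114. The non-LRC libraries of JV621 and JV6314, where Abcc2 had 0 and 2 counts, are those with the most genes at 0. The fold change was 2.28 without that of JV621, 2.48 without that of JV6314 and 1.95 (standard error 1.23, unadjusted p of 0.152 in edgeR) without both. The LLRC library of JV6314 had the highest level, and without it the fold change was 1.80 (unadjusted p of 0.169 in edgeR), while leaving out JV602 from the non-LRC libraries gave 3.40 (p of 0.0379). With the mouse as a block it was 2.24 (p of 0.233) in edgeR, and with limma's voom it was 1.66 (p of 0.345).

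The duct transporters were read at low levels or not at all. Slc10a2 (chromosome 8, 5083219 to 5105351, minus strand) encodes ASBT, the sodium-dependent transporter at the apical membrane of cholangiocytes and of ileal enterocytes. Its LLRC counts were 13, 53, 40 and 19, or 1.26, 6.27, 5.88 and 2.11 CPM. Its non-LRC counts were 20, 0, 60 and 0, or 2.5, 0, 9.47 and 0 CPM. The highest and the lowest values were both in non-LRC libraries, and LLRC was higher in JV621 and JV6314 and lower in JV602 and JV624. The means of 3.88 ± 2.56 and 2.99 ± 4.48 CPM (SD, n = 4 each) differed by less than the spread between libraries (log2 fold change 0.36, standard error 1.35, adjusted p = 0.9999 from edgeR, exact permutation p of 0.771). The fold change was -0.04 without the non-LRC library of JV621 and -0.045 without that of JV6314, so the sign of the difference rested on either of the libraries at 0.

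Slc51a (chromosome 16, 32474504 to 32487879, minus strand) and Slc51b (chromosome 9, 65412714 to 65422955, minus strand) encode OSTα and OSTβ, the subunits of the basolateral exporter that partners ASBT. Both had 0 counts in all 8 libraries. Over the 59104383 counts of the 8 libraries together, a count of 0 allows a level of up to 0.0508 CPM before TMM scaling (3 counts), for counting error only. Of the exon length of Slc51a, 17.7% overlaps Pcyt1a, and 12.8% of that of Slc51b overlaps Rasl12, both on the opposite strand. Reads in these stretches are ambiguous in union mode without strand, but most of the exon sequence of both genes could be counted. Expression of the heteromer below this limit was not detectable at this depth.

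Abcc3 (chromosome 11, 94343295 to 94392997, minus strand) encodes MRP3, which exports glucuronides and bile acids across the basolateral membrane of cholangiocytes and hepatocytes. It was the member most evenly read, at 45.5, 40.3, 37.4 and 31.1 CPM in LLRCs. In the non-LRC libraries it was at 21.5, 78.7, 37.4 and 26.0 CPM. JV624 had nearly the same level in both libraries, JV602 and JV6314 were higher in LLRC, and JV621 was higher in non-LRC. The means were 38.6 ± 6.00 and 40.9 ± 26.1 CPM (SD, n = 4 each), with a log2 fold change of -0.08 and a standard error of 0.44 (edgeR, adjusted p of 0.9999), and an exact permutation p of 0.943. Its coefficient of variation among LLRC libraries was 15.6%, against 45.3% to 102% for the other 7 members with counts, and 63.7% among non-LRC libraries, against 73.6% to 150% for those members. Without the non-LRC library of JV621 the fold change was 0.46 and the non-LRC mean 28.3 CPM.

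**Figure D2:**
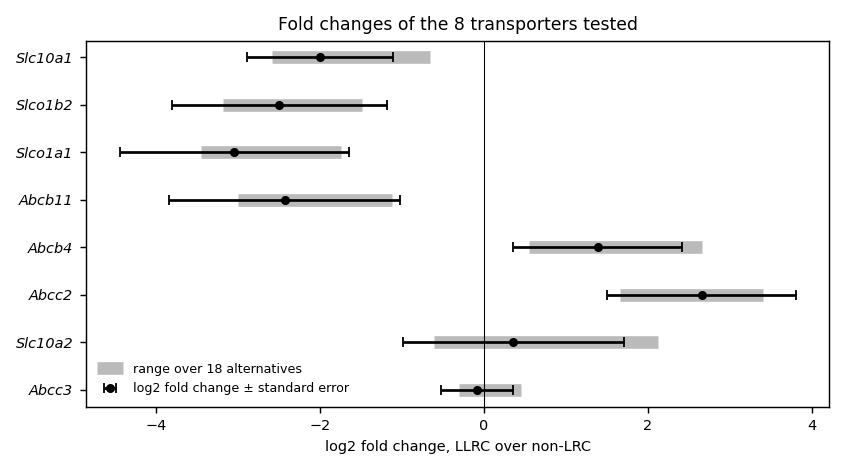
Log2 fold change of each of the 8 tested transporters, LLRC over non-LRC, with points and whiskers for the estimate and its standard error from edgeR's quasi-likelihood test and grey bars for the range over 18 alternative settings. The grey bars of Slc10a2 and Abcc3 cross 0, those of the other 6 members stay on the side of their estimate, and no member passed the adjusted threshold.

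Read together, 8 of the 10 members passed the filter on low counts, and each of these was above 0 in at least 6 of 8 libraries. Of the 8, 3 had positive and 5 negative log2 fold changes, with a median of -1.04, and the 6 hepatocyte transporters had a median of -2.22. Over all 13605 tested genes, 6647 fold changes were positive and 6958 negative, with a median of -0.01. No member had groups that did not overlap, where 2.15% of tested genes were higher in LLRC without overlap and 1.91% lower. None moved in the same direction in all 4 mice, where 7.74% of tested genes were higher in LLRC in all 4 and 5.53% lower. By other tests, Slc10a1, Slco1a1 and Abcc2 had an unadjusted p below 0.05 in DESeq2, where 5.29% of genes had, and in edgeR's exact test, where 4.66% had. With limma's voom and sample weights 0 members did, against 6.51% of genes, and with the mouse as a block in edgeR 0 did, against 4.18%. A newer form of edgeR's dispersion gave 5 members, the 3 uptake transporters, Abcb11 and Abcc2, against 7.51% of genes. After adjustment 0 members passed in any of these, where DESeq2 called 1.6% of genes, the exact test 0.417% and the newer dispersion 0.537%. Each group holds 4 libraries, which allow no exact two-sided permutation p below 0.0286.

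Hepatocyte and duct transporters were then set side by side by mouse, on summed CPM as a description without a test. The 6 hepatocyte transporters summed to 28.5, 37.4, 57.1 and 58.4 CPM in the LLRC libraries. Across the non-LRC libraries they summed to 47.0, 104, 402 and 221 CPM. The LLRC sum was the lower in 4 of 4 mice, although the ranges of the groups overlapped. The difference in means was -148 CPM (standard error 72.1), and without JV624 it was -82.6 CPM. The sum was carried by the 3 uptake transporters, at 18.6 to 51.0 CPM in LLRC and 41.7 to 373 CPM in non-LRC libraries, lower in LLRC in 4 of 4 mice. Different genes made up this difference: in the non-LRC library of JV621 the uptake sum was Slc10a1 alone, with Slco1b2 and Slco1a1 at 0, whereas in JV602 Slc10a1 was higher in LLRC and Slco1b2, at 8.72 against 32.7 CPM, was most of the difference. The 3 canalicular transporters summed to 6.03 to 17 CPM in LLRC and 0.626 to 29.0 CPM in non-LRC libraries, higher in LLRC in 3 of 4 mice. The duct sum, which is Slc10a2 alone, differed by 0.886 CPM (standard error 2.14), with 2 mice in each direction.

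Markers of hepatocytes moved with the hepatocyte transporters in part of the mice. The 17 hepatocyte markers without Alb were highest in the non-LRC libraries of JV624 and JV6314, which also had the highest transporter sums. In JV621 the marker sum was lower in non-LRC than in LLRC while the transporter sum was higher. In JV602 the marker sums were close, at 2129 CPM in non-LRC and 2213 CPM in LLRC. There Ahsg, at 833 CPM in non-LRC and 1124 CPM in LLRC, Apob, Fga and Serpina1a were lower in non-LRC. The rest of the 17 markers were higher in that non-LRC library, as the transporter sum was. Of the 18 hepatocyte markers with Alb, 10 were lower in LLRC at an unadjusted p below 0.05 in edgeR, where 3.56% of tested genes were, with a median log2 fold change over the list of -1.57 and a smallest adjusted p of 0.332. These 10 were Apoa1, Apoa2, Serpina1a, Cps1, Tat, Cyp2e1, Asgr1, Tdo2, Hpd and Pck1, with fold changes from -2.88 (Hpd) to -1.52 (Serpina1a). Of the 18, 15 fold changes were negative and 3 positive. The positive ones were Apob at 0.74, Ahsg at 0.46 and Alb at 0.01. Apob was higher in LLRC in 4 of 4 mice and Ahsg in 3 of 4. After Alb, the highest mean levels of the list were those of Ahsg, Ttr and Apoa2. Alb itself was at 2337 ± 198 CPM in LLRC libraries and 2319 ± 604 CPM in non-LRC libraries (SD, n = 4 each). Per 1000 counts of Alb, the hepatocyte transporters had 11.2, 15.3, 27.3 and 25.7 counts across the LLRC libraries and 21.2, 69.3, 145 and 79.2 across the non-LRC libraries. This ratio was lower in LLRC in every mouse, as the transporter sum was. Alb differed little between the groups, unlike the list with its median of -1.57. The ratio is therefore not a measure of transporter RNA per hepatocyte.

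Markers of further cell types also differed between the groups, and their part in the transporter levels was not tested. The 12 endothelial markers summed to 31.0 to 52.0 CPM in LLRC and 173 to 597 CPM in non-LRC libraries, and all 11 that were tested were lower in LLRC at an unadjusted p below 0.05, where 3.56% of all tested genes were, with a smallest adjusted p of 0.0809 in edgeR. These were Pecam1, Cdh5, Kdr, Tek, Flt1, Cldn5, Esam, Stab1, Stab2, Clec4g and Egfl7, with fold changes from -4.27 (Pecam1) to -2.42 (Egfl7), and Kdr and Tek had the highest levels. Stellate cell and fibroblast markers summed to 84.5 to 576 CPM in LLRC and 538 to 2597 CPM in non-LRC libraries, and Des was at 0 in 5 of 8 libraries. Dcn and Col3a1 had the highest levels, and Dcn and Lrat were lower in LLRC at an unadjusted p below 0.05, with fold changes of -1.90 and -2.98 (adjusted p of 0.832 and 0.104 from edgeR). Pancreatic acinar markers summed to 836 CPM in the non-LRC library of JV6314 and to at most 22.9 CPM in every other library, led by Pnlip and Cela2a, and Cela1 had a fold change of -1.96 (unadjusted p of 0.0493 from edgeR). The 10 leukocyte markers summed to 12.1 to 30.8 CPM in LLRC and 16.7 to 37.3 CPM in non-LRC libraries, with Cd3e and Cd79a at 0 in all 8. Most of this sum was Csf1r, at 17.3 ± 8.40 and 19.3 ± 6.03 CPM in LLRC and non-LRC cells (SD, n = 4 each), and the other markers did not share a direction. Ptprc, which encodes the leukocyte antigen CD45, was at 3.28 ± 2.62 and 0.345 ± 0.691 CPM (SD, n = 4 each), higher in LLRC in 4 of 4 mice (fold change 3.27, standard error 1.42, unadjusted p of 0.0468, adjusted p of 0.957 from edgeR). The Kupffer cell markers Adgre1, Clec4f, C1qa and C1qb were at 0 in all 4 LLRC libraries and at means of 0.552 to 1.93 CPM in non-LRC libraries. Some non-LRC libraries were at 0 as well: Adgre1, Clec4f and C1qa were at 0 in 6 of 8 libraries and C1qb in 5 of 8. None of them passed the filter on low counts. Lyz2, which did not pass it either, was lower in LLRC in 4 of 4 mice.

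The 16 cholangiocyte markers without Spp1 were at 3085 to 3379 CPM in LLRC and 2405 to 3822 CPM in non-LRC libraries, where Tspan8 and Epcam had the highest levels. Of the 17 with Spp1, 1 was past an unadjusted p of 0.05, against 5.16% of all tested genes. That 1 was Cftr, the apical chloride channel of cholangiocytes, which was higher in LLRC with a fold change of 1.43 (standard error 0.47, unadjusted p of 0.0141, adjusted p of 0.688 from edgeR).

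**Figure D3:**
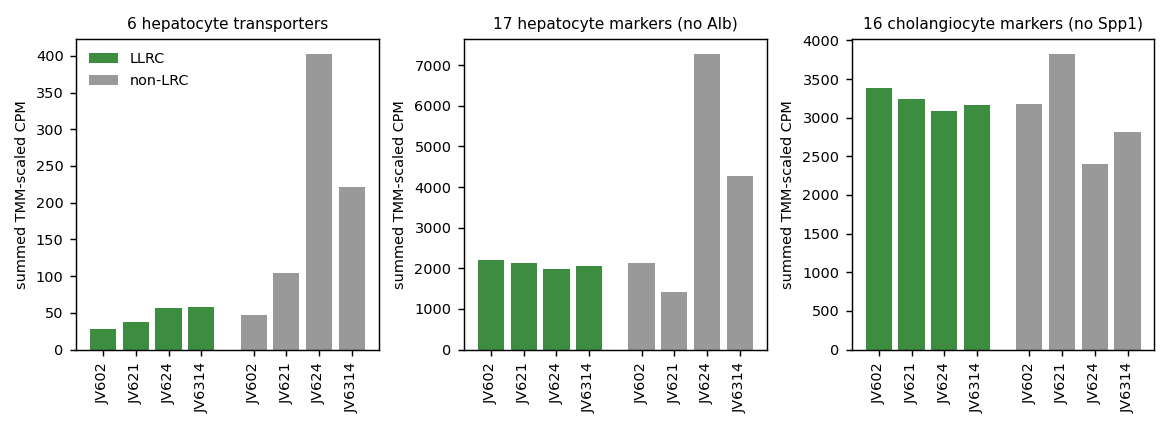
Summed TMM-scaled CPM by library for the 6 hepatocyte transporters, 17 hepatocyte markers without Alb and 16 cholangiocyte markers without Spp1, on linear axes from 0, with green bars for LLRC and grey bars for non-LRC. The transporter sum is lower in the LLRC library of each mouse, at 28.5 to 58.4 CPM against 47.0 to 402 CPM, and the hepatocyte markers are highest in the non-LRC libraries of JV624 and JV6314.

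The order of the members' levels was taken per kilobase of exon, since longer transcripts give more reads. Over all 8 libraries the mean levels in CPM per kilobase were 18.1 ± 18.5 for Slc10a1, 7.79 ± 11.1 for Slco1b2, 6.98 ± 3.08 for Abcc3 and 5.69 ± 8.73 for Slco1a1 (SD, n = 8). Abcb11 followed at 0.951 ± 1.52, Slc10a2 at 0.828 ± 0.821, Abcb4 at 0.394 ± 0.303 and Abcc2 at 0.301 ± 0.426 CPM per kilobase (SD, n = 8), with Slc51a and Slc51b at 0. Every gap between neighbours in this order was smaller than the SD of the higher gene. Slc10a1 was above Slco1b2 in 7 of 8 libraries and Slco1a1 was above Abcb11 in 7 of 8, whereas Slco1b2 exceeded Abcc3 in 3 of 8 and Abcb11 exceeded Slc10a2 in 2 of 8. On the same scale Alb was at 994 and Krt19 at 67.4 CPM per kilobase.

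The order differed between the groups as a description. In LLRCs, Slc10a1 at 7.24 and Abcc3 at 6.77 CPM per kilobase were followed by Slco1b2 at 2.35 and Slco1a1 at 1.23. Slc10a1 exceeded Abcc3 in 2 of 4 LLRC libraries, and when that of JV6314, its highest, was left out, the LLRC means were 4.78 for Slc10a1 and 7.20 for Abcc3, with Abcc3 the higher. In non-LRC cells Slc10a1 was at 29.1, Slco1b2 at 13.2 and Slco1a1 at 10.1 CPM per kilobase, all above Abcc3 at 7.18. Slco1a1 exceeded Abcc3 in 2 of 4 non-LRC libraries and Slco1b2 in 3 of 4, and without the library of JV624 the non-LRC means of Slco1b2, Slco1a1 and Abcc3 were 6.57, 6.5 and 7.39 CPM per kilobase, with Abcc3 the highest of the 3. Abcb11 was the lowest of the 8 members with counts in LLRC, at 0.297 CPM per kilobase, and the fifth of them in non-LRC cells, at 1.60.

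Likeness between members was described by Pearson's r of log2 CPM over the 8 libraries, which share mice, depth and the zeros of 2 libraries. Slco1b2, Slco1a1 and Abcb11 varied together, with r of 0.918 between Slco1b2 and Slco1a1, 0.894 between Slco1a1 and Abcb11 and 0.820 between Slco1b2 and Abcb11. Slc10a1 did not follow them, at r of -0.156, 0.140 and 0.319 with Slco1b2, Slco1a1 and Abcb11. Abcc3 ran opposite to Slco1b2, at r of -0.708, and Abcb4 was closest to Slc10a2, at 0.794. Of the promoter windows of the 3 that varied together, those of Slco1b2 and Abcb11 held the near match to IR-1 shown above and that of Slco1a1 did not.

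Among all tested genes, the pattern most like that of Slc10a1 was that of Fhl1 (r of 0.948), followed by Insig2 (0.939) and Cd55b (0.937). For Slco1a1 the nearest genes were Ang (0.983), Aprt (0.982) and Decr2 (0.982), and for Abcb11 they were Gm9844 (0.989), Mup21 (0.982) and Rpl38-ps2 (0.976). The gene nearest to Slco1b2 was Gm14016 (0.990), that nearest to Abcb4 was Eps8l1 (0.984), that nearest to Abcc2 was Cfap36 (0.948), that nearest to Slc10a2 was Pcdhb20 (0.996) and that nearest to Abcc3 was Nrbp1 (0.958). With 8 libraries and 13605 genes, values of this size describe likeness and carry no test.

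The other genes of the pathway were taken from 3 lists, on synthesis and conjugation, sensing, and other transport. Of 41 genes, 30 passed the filter, of which 8 had positive and 22 negative log2 fold changes with a median of -0.56, and 0 had an adjusted p below 0.05. At an unadjusted p below 0.05, 4 were lower in LLRC and 0 higher in edgeR's quasi-likelihood test, where 3.56% of all tested genes were lower and 1.6% higher. With the mouse as a block, 1 of these 4, Cyp2c70, still had an unadjusted p below 0.05, where 4.18% of genes had. Cyp7a1, Cyp8b1 and Abca1 then had unadjusted p of 0.102, 0.488 and 0.223 in edgeR, at fold changes of -4.69, -1.54 and -1.26.

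All 13 genes of bile acid synthesis and conjugation had negative fold changes, with a median of -1.63. Over all 13605 tested genes, 6958 were negative, and the 18 hepatocyte markers had a median of -1.57. Cyp8b1, Cyp27a1, Hsd3b7, Acox2, Hsd17b4 and Slc27a5 were lower in LLRC in only 2 of 4 mice. The 13 genes summed to 2742 CPM in the non-LRC library of JV624, against 477 to 949 CPM in the other non-LRC libraries. With the mouse as a block 11 of 13 were negative, with a median of -0.89, and Hsd3b7 and Acox2 were positive at 0.058 and 0.21. Cyp7a1, the rate-limiting enzyme of bile acid synthesis, had LLRC counts of 8, 14, 2 and 0 and non-LRC counts of 157, 0, 141 and 69, so it was lower in LLRC in 3 of 4 mice. Its log2 fold change was -4.31 (standard error 1.47, unadjusted p of 0.0165, adjusted p of 0.728 from edgeR). Cyp8b1, which makes cholic acid precursors, had LLRC counts of 12, 7, 9 and 13 and non-LRC counts of 1, 1, 206 and 143. Only JV624 and JV6314 were lower in LLRC for Cyp8b1, whose fold change was -3.66 (standard error 1.46, unadjusted p of 0.0329, adjusted p of 0.893 from edgeR). Cyp2c70, which makes the muricholic acids of mice, was at 4.46, 19.8, 35 and 14 CPM in LLRC and 8.27, 76.6, 198 and 56.2 CPM in non-LRC libraries. It was lower in LLRC in 4 of 4 mice, with a fold change of -2.21 (standard error 0.89, unadjusted p of 0.0336, adjusted p of 0.893 from edgeR).

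Besides Cyp2c70, the synthesis genes with the highest levels were Scp2, Hsd17b4 and Hsd3b7. Scp2, a sterol carrier with a peroxisomal thiolase form, stood at 350.4 ± 77.2 and 740.0 ± 731 CPM in LLRC and non-LRC cells (SD, n = 4 each), lower in LLRC in 4 of 4 mice and with 1829 CPM in the non-LRC library of JV624. Hsd17b4, an enzyme of peroxisomal side chain shortening, was at 62.7 ± 10.7 and 83.9 ± 40.9 CPM, and Hsd3b7, which acts early in the pathway, at 36.9 ± 6.09 and 44.7 ± 29.9 CPM (SD, n = 4 each). Neither Scp2, Hsd17b4 nor Hsd3b7 had an unadjusted p below 0.05.

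Of the 11 genes of bile acid sensing, 7 were tested, with 4 positive and 3 negative fold changes, a median of 0.41 and none past an unadjusted p of 0.05. Nr1h4, which encodes the bile acid receptor FXR, was at 29.6 ± 8.89 and 37.8 ± 8.60 CPM in LLRC and non-LRC cells (SD, n = 4 each). Its target Nr0b2, which encodes the corepressor SHP, was at 58.8 ± 12.2 and 41.6 ± 12.8 CPM, and Nr5a2, which activates Cyp7a1 and is repressed by SHP, at 50.9 ± 23.1 and 38.2 ± 12.7 CPM (SD, n = 4 each). Their log2 fold changes were -0.35, 0.50 and 0.41, each with a standard error of at least 0.32 and none past the threshold. Gpbar1, the membrane bile acid receptor, had 10 counts in the non-LRC library of JV602 and 0 in the other 7 libraries.

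Of the 17 genes of other transport, 10 were tested, with 4 positive and 6 negative fold changes and a median of -0.21. Abca1, which exports cholesterol to lipoprotein particles, was at 34.1, 29.1, 74.6 and 57.6 CPM in the LLRC libraries and at 104, 449, 27.1 and 109 CPM in non-LRC libraries. It was lower in LLRC in 3 of 4 mice, with a fold change of -1.82 (standard error 0.75, unadjusted p of 0.0378, adjusted p of 0.915 from edgeR), and without the non-LRC library of JV621 the non-LRC mean was 80.0 CPM in place of 172. Tmem30a, the subunit that phospholipid flippases need to leave the endoplasmic reticulum, was at 433 ± 143 and 496 ± 221 CPM, and Abcg2, an apical exporter, at 68.0 ± 23.9 and 79.4 ± 29.5 CPM (SD, n = 4 each). Fabp6, the bile acid binding protein of ileal enterocytes, had 0 counts in all 8 libraries, as Slc51a and Slc51b did.

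**Figure D4:**
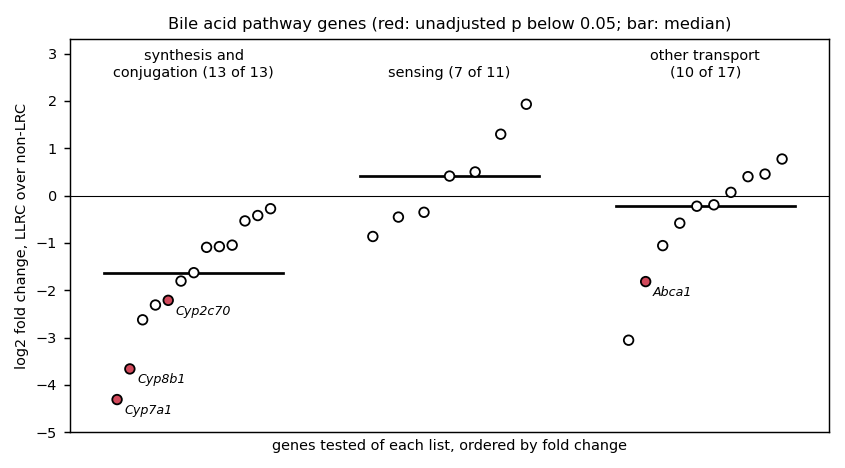
Log2 fold change, LLRC over non-LRC, of the 30 tested genes of 3 bile acid pathway lists, ordered within each list, with a bar at each median and red points for an unadjusted p below 0.05 in edgeR. The 13 synthesis genes lie below 0 with a median of -1.63, and the medians of sensing and other transport are 0.41 and -0.21.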

How the data were processed

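RNA-seq libraries of sorted LLRC and non-LRC cells from 4 mice, separate animals, were grouped by the sample labels. The authors deposited raw gene counts, made with HTSeq in union mode on exons of GRCm38 with the Ensembl annotation, without strand; the aligner is not given in the sources used here. The authors' deposited edgeR comparison (log2 fold changes, abundance, p-values) was not used. Symbols and exon lengths came from GENCODE M21, with 46005 of 46603 identifiers matched, and promoters from RefSeq.

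Counts were scaled by TMM, filtered with filterByExpr and tested with edgeR 4.0.16 (quasi-likelihood test, group as the only term) in R 4.3.3, with Benjamini-Hochberg adjustment over 13605 genes. DESeq2 1.42.0 and limma 3.58.1 served as alternatives. Exact permutation tests compared the CPM of 4 against 4 libraries. The members, lists and tests were chosen with earlier results of these data known. All members were named. From the other lists, the genes with the highest mean CPM, those with an unadjusted p below 0.05 and defining markers at 0 were named, and the genes nearest to each member were found by Pearson's r of log2 CPM. The mouse pairs its LLRC and non-LRC library; across genes, their deviations from the group means had correlations of 0.096 (JV602), 0.074 (JV621), 0.003 (JV624) and 0.171 (JV6314). Tested on simulated data in which 200 of 13605 genes had a log2 change of 3, the test recovered 78 of them with 1 false call at the estimated dispersion.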

Additional observations from a re-analysis of the deposited data

How the results depend on the processing

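The number of members with an adjusted p below 0.05 was 0 in each of 18 alternatives, as was that of the other pathway genes, and 6 of the 8 tested members did not change sign in any of them. With the mouse as a replicate block, 0 members passed, 0 also at an unadjusted p below 0.05 (Abcc2 without the block), and the fold change of Abcc3 was 0.092; the block changed no other sign and no adjusted call. The fold change of Abcc3 was also positive with limma's voom (0.41), without the non-LRC library of JV621 (0.46), without the LLRC library of JV6314 (0.02) and without the non-LRC libraries of JV621 and JV6314 (0.40), and ranged from -0.31 to 0.46 when single libraries were left out. That of Slc10a2 was -0.04 without the non-LRC library of JV621, -0.045 without that of JV6314 and -0.61 without both, and reached 2.12 when that of JV624 was left out. The cause was not tested. Over all alternatives the fold change ranged from -2.59 to -0.66 for Slc10a1, from -3.18 to -1.49 for Slco1b2, from -3.45 to -1.74 for Slco1a1, from -3.00 to -1.12 for Abcb11, from 0.55 to 2.66 for Abcb4 and from 1.66 to 3.40 for Abcc2. Of the other pathway genes, 4 had an unadjusted p below 0.05, 1 with the block, and between 1 (without the LLRC library of JV621 or of JV6314) and 12 (without the non-LRC library of JV621) when single libraries were left out. Of all tested genes, 5.16% were past that threshold in the quasi-likelihood test and 4.18% with the block. That share was not taken for the fits without a library, so their counts cannot be read against a background. The summed hepatocyte transporters differed by -192 to -82.6 CPM and Slc10a2 by -0.908 to 2.38 CPM. Over all genes, adjusted calls numbered 0 in the quasi-likelihood test, 265 in DESeq2, 115 in edgeR's exact test and 0 in limma, and 73 with a newer form of the quasi-likelihood dispersion, under which 5 members had an unadjusted p below 0.05 where 7.51% of genes did. That form and the removal of more than 1 library were chosen after seeing the data. At counts under 10, as for Abcb11 and Abcc2 in several libraries, depth limits the precision.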
